A study of Mus musculus with 8 samples.

Results

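The genes described here carry out and regulate the breakdown of stored triglyceride in white adipocytes, or coat the lipid droplet on which it takes place. They are 10 of the 30387 genes of the expression table: Pnpla2, Lipe, Mgll, Abhd5, G0s2, Plin1, Plin2, Plin4, Cidec and Pde3b. Each was found once in the table by its gene name, in all 8 libraries, and each passed the filter on low values (a mean of 5 or more normalized counts), as did 18800 genes in all. They were chosen by name, with earlier results of these data known.

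White adipocytes keep triglyceride in a single large droplet and release it as fatty acids and glycerol in steps. Pnpla2 (ATGL) removes the first fatty acid with Abhd5 (CGI-58) as its coactivator and G0s2 as its inhibitor, Lipe (hormone-sensitive lipase) acts on the diglyceride, and Mgll (monoglyceride lipase) on the last ester bond. Plin1 is the perilipin of the adipocyte droplet, where it holds Abhd5 back until protein kinase A phosphorylates it, Plin4 is a further adipocyte perilipin, and Plin2 coats droplets in many cell types, macrophages included. Cidec promotes the fusion of droplets into one large droplet, and Pde3b is the phosphodiesterase that lowers cAMP when insulin acts on the adipocyte and so restrains lipolysis.

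RNA-seq was done on white adipocytes isolated from the epididymal fat of mice. Wild-type littermates (WT) were compared with Ad-Yap/Taz-KO mice, in which Adipoq-Cre acts on floxed alleles (fl/fl) of Yap and of Taz, after 4 weeks on normal chow (NC) or on a high-fat diet (HFD). The series' design text puts the start of the diets at 5 weeks of age, and the study's general methods give a later start. YAP and TAZ are transcriptional coactivators of the Hippo pathway. The Adipoq-Cre transgene is driven by the adiponectin promoter and acts in all adipocytes from their formation on, so loss of the genes at a chosen time was not examined in these libraries. The 4 groups held 2 libraries each, 1 mouse per library by the study's description.

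Values are normalized counts, that is, reads per gene divided by a size factor for each library. Depth was 14.0 to 22.3 M reads on genes per library. Wwtr1, which encodes TAZ, was lower in Ad-Yap/Taz-KO on NC (log2 fold change -1.24) and on HFD (-1.56). Yap1 was lower on NC (-0.71), while on HFD it read 2468 and 2333 in WT against 1549 and 2068 in Ad-Yap/Taz-KO and did not pass the test (-0.42). These are values for whole genes and do not separate deleted from remaining exons. All 9 adipocyte markers were detected in every library, and markers of lymphocytes were near 0 (summed level 13 to 92). The 2 WT HFD libraries were unusually alike. At means of 1000 to 5000 their median squared difference was 5.64 times the Poisson expectation, against 17.0 in WT NC, 41.0 in Ad-Yap/Taz-KO NC and 55.6 in Ad-Yap/Taz-KO HFD, so both WT HFD values are given singly and calls are also given with these libraries counted as 1 sample. The 2 Ad-Yap/Taz-KO HFD libraries stood apart from each other. Replicate 2 held less than replicate 1 of all 10 genes, by 1.22-fold for Plin2 and up to 2.99-fold for Cidec, while the median over all genes at a mean of 50 or more was 1.05-fold.

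The 10 genes lie on 6 chromosomes in the GRCm38 build, as annotated in GENCODE vM21. Pnpla2 (ENSMUSG00000025509, chr7:141455198-141460743, + strand), Lipe (ENSMUSG00000003123, chr7:25379527-25398710, - strand), Plin1 (ENSMUSG00000030546, chr7:79720218-79732903, - strand) and Pde3b (ENSMUSG00000030671, chr7:114415281-114539251, + strand) share chromosome 7. Mgll (ENSMUSG00000033174, chr6:88724412-88828360, + strand) and Cidec (ENSMUSG00000030278, chr6:113424634-113435760, - strand) are on chromosome 6. The others are G0s2 (ENSMUSG00000009633, chr1:193272161-193273217, - strand), Plin2 (ENSMUSG00000028494, chr4:86648386-86670060, - strand), Abhd5 (ENSMUSG00000032540, chr9:122351608-122381524, + strand) and Plin4 (ENSMUSG00000002831, chr17:56100591-56109803, - strand). Exons of a gene on the opposite strand cover 16.0% of the exonic bases of Abhd5 (A730085K08Rik), 15.6% of those of Lipe (4732471J01Rik), 3.29% of those of Mgll (Gm26588) and 0.294% of those of Plin4 (Hdgfl2). Whether counting used the strand is not given in the sources used here, and reads over several genes were left out by the authors. If the strand was not used, reads in these shared exons were not counted.

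RefSeq promoter windows (GRCm38.p6, 250 bases before to 50 after the start site) were at hand for 9 of the 10 genes, in 12 windows. They were searched on both strands for GGAATG, the core letters bound by TEAD factors, the DNA-binding partners of YAP and TAZ. The letters occurred in 2 of the 12 windows, 1 of Abhd5 and 1 of Cidec, and in 14.7% of all 32851 windows. TGTTTAC (FOXO factors) occurred in windows of Lipe and Mgll and in 3.65% of all windows, TTGCNNAA (C/EBP factors) in Cidec and Plin1 and in 10.8%, and CACGTG (E-box) in Lipe, Mgll and Plin2 and in 7.15%. The DR1 repeat bound by PPARs was in none of the 12 windows and in 0.38% of all. The 3 runs below are the parts of the Cidec, Abhd5 and Plin2 windows that lie before the first exon, 5′ to 3′ on the gene's strand. They are shown because the first 2 hold the TEAD letters (in capitals) and belong to genes that behaved differently, and because Plin2 is the member that moved against the others. The match begins 90 bases before the RefSeq start site in Cidec and 132 bases before it in Abhd5, and a match of letters does not show binding.
Cidec, chr6:113435761-113436010, - strand: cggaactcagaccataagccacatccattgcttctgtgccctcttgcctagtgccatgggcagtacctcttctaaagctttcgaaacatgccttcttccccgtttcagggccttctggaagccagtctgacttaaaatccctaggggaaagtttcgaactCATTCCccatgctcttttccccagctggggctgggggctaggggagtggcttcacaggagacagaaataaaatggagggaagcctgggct
Abhd5, chr9:122351366-122351607, + strand: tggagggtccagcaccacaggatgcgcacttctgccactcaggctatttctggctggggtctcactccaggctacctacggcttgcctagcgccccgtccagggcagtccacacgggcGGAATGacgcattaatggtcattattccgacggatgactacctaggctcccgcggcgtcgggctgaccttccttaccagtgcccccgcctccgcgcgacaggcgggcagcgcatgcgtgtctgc
Plin2, chr4:86670061-86670309, - strand: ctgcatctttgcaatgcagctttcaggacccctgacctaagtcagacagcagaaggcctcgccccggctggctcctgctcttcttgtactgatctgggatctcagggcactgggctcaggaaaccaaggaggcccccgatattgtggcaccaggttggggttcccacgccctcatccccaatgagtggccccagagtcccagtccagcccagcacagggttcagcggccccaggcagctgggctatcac

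Levels of different genes were compared as normalized counts per kilobase of exon. Over the 8 libraries Cidec was highest, with a mean of 16622 per kb, followed by Plin4 (10163), Pnpla2 (8117), Plin1 (7800), Mgll (2630), Lipe (2420), Plin2 (1822), Pde3b (1521), G0s2 (1512) and Abhd5 (374). This order over all libraries differed from that within groups. In WT HFD Plin1 (12269) lay above Pnpla2 (11463), and in WT HFD and WT NC G0s2 lay above Pde3b, in both libraries each. In each of the 4 groups both libraries placed Abhd5 last, below every library's value for the next gene. Among the 4 highest genes in WT NC, Plin4 was not separated from Plin1, nor Plin1 from Pnpla2, and in Ad-Yap/Taz-KO HFD Cidec, Pnpla2, Plin4 and Plin1 each overlapped the next in the order, while Plin2 lay above Mgll in both libraries. Plin2 changed place most. It held rank 9 of 10 in all 4 WT libraries, with 722 to 1751 per kb, and ranks 5 and 4 in the 2 Ad-Yap/Taz-KO HFD libraries, with 3418 and 2795 per kb.

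**Figure D1:**
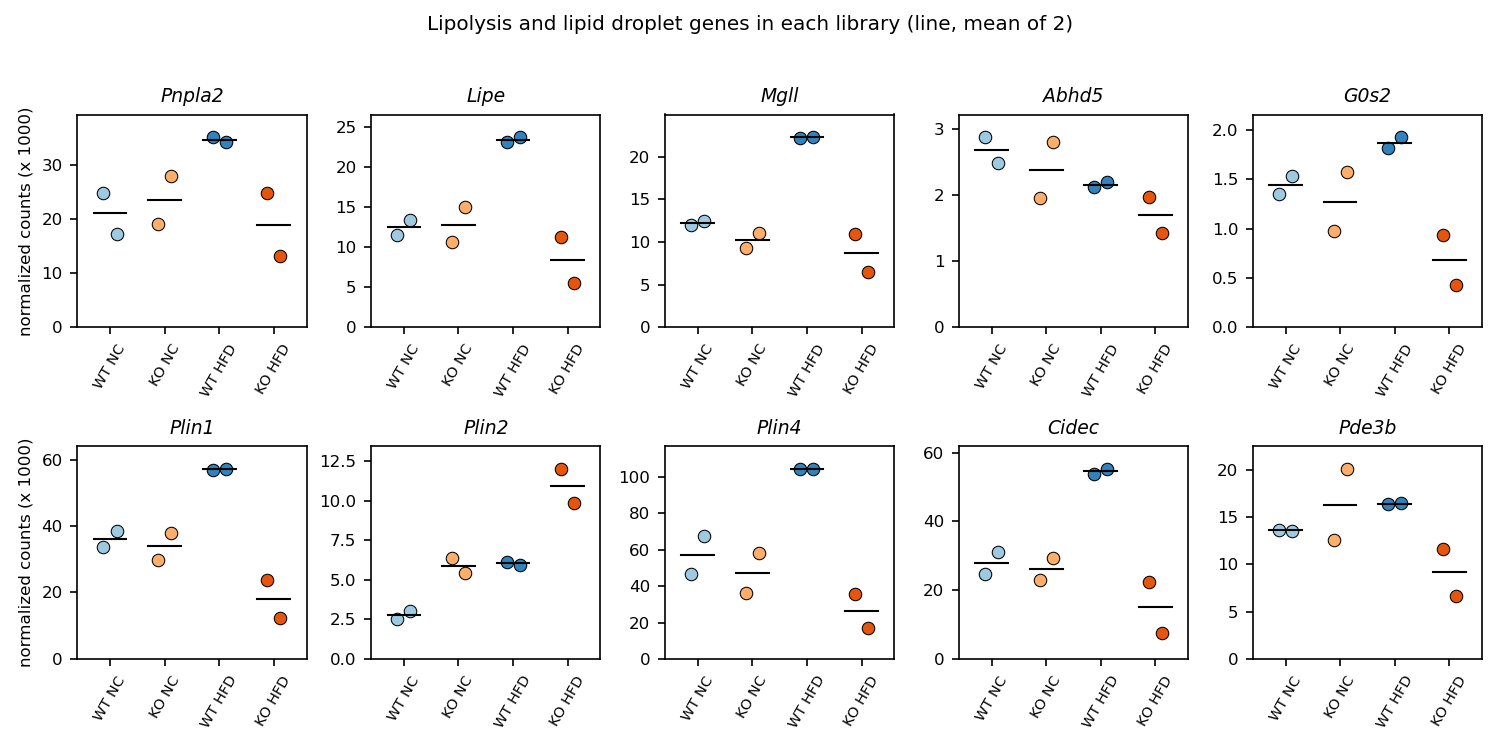
Normalized counts (axis in units of 1000, linear from 0) of the 10 genes in WT and Ad-Yap/Taz-KO (KO) adipocytes on NC and HFD. Each point is 1 library and each line the mean of 2. In 8 panels both KO HFD points lie below both WT HFD points by a margin that passed the test, Abhd5 lies lower without passing it, and the Plin2 panel shows the opposite order, with 12004 and 9817 in KO HFD against 6149 and 5923 in WT HFD.

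The first comparison asked how these genes differed between the genotypes on HFD. On HFD 8 of the 10 genes were lower in Ad-Yap/Taz-KO than in WT adipocytes, Plin2 was higher, and Abhd5 did not pass the test. The largest falls were those of Plin4 and Cidec, 4.21-fold each, and Plin2 rose 1.80-fold. A gene was called when its adjusted p (limma, Benjamini-Hochberg over all 18800 genes) was at most 0.05 and its log2 fold change at least 0.59 in size. By this rule 32.2% of all genes tested were called, 17.1% higher and 15.1% lower, so that 9 of 10 called and 8 of 10 lower stand against those shares. The median log2 fold change was -1.48 over the 10 genes and 0.09 over all genes. The libraries of the 2 groups did not overlap for any of the 10 genes, which held for 69.6% of all genes.

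Of the 3 lipases among the 10 genes, Lipe had the lowest fold change. It read 23066 and 23668 in WT HFD compared with 11207 and 5523 in Ad-Yap/Taz-KO HFD, a log2 fold change of -1.57 ± 0.27 (SE, n = 2 libraries per group, adjusted p = 0.000856). Mgll read 22219 and 22262 in WT against 10983 and 6487 in Ad-Yap/Taz-KO (-1.40 ± 0.21, adjusted p = 0.000361). For both genes the Ad-Yap/Taz-KO HFD values also lay below both WT NC values. Pnpla2 read 35078 and 34158 in WT against 24800 and 13093 in Ad-Yap/Taz-KO (-0.94 ± 0.29, adjusted p = 0.0225). Its 2 Ad-Yap/Taz-KO libraries differed 1.89-fold, and the call was lost without replicate 2 (-0.48) and when the 2 WT HFD libraries counted as 1 (adjusted p = 0.123).

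The regulators of Pnpla2 differed from each other. G0s2, its inhibitor, read 1818 and 1923 in WT HFD compared with 939 and 429 in Ad-Yap/Taz-KO HFD (-1.56 ± 0.30, adjusted p = 0.00184). The coactivator Abhd5 read 2116 and 2200 in WT against 1969 and 1428 in Ad-Yap/Taz-KO (-0.36 ± 0.20, adjusted p = 0.179; 95% confidence interval -0.80 to 0.07), and its sign turned when all libraries were scaled to the same total (0.02). In each library the inhibitor can be set against the lipase. The ratio of G0s2 to Pnpla2 normalized counts was 0.0379 and 0.0328 in the 2 Ad-Yap/Taz-KO HFD libraries, below the 0.0512 to 0.0889 of the other 6 libraries. Abhd5 to Pnpla2 was 0.0794 and 0.109 in Ad-Yap/Taz-KO HFD, above the 0.0603 and 0.0644 of WT HFD and within the range of the NC libraries for replicate 2.

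Among the coat proteins, Plin1 read 56852 and 57222 in WT HFD compared with 23643 and 12435 in Ad-Yap/Taz-KO HFD (-1.73 ± 0.26, adjusted p = 0.000313). Plin4 read 104094 and 104425 in WT against 35869 and 17077 in Ad-Yap/Taz-KO (-2.07 ± 0.33, adjusted p = 0.000469). Cidec, the droplet fusion protein, read 53794 and 55262 in WT against 22406 and 7501 in Ad-Yap/Taz-KO (-2.07 ± 0.37, adjusted p = 0.000984). For all 3, replicate 2 of Ad-Yap/Taz-KO HFD was the lowest of the 8 libraries, and the fold changes without it were -1.27 for Plin1, -1.54 for Plin4 and -1.28 for Cidec, each still called. Without replicate 1 they were -2.20, -2.61 and -2.86. Lipe, Mgll and G0s2 were at -1.06, -1.02 and -0.99 without replicate 2 and at -2.08, -1.78 and -2.12 without replicate 1.

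Plin2 moved the other way and in both replicates. It read 6149 and 5923 in WT HFD compared with 12004 and 9817 in Ad-Yap/Taz-KO HFD (0.85 ± 0.16, adjusted p = 0.00169), the 2 highest values of the 8 libraries. Pde3b, the brake set by insulin, read 16373 and 16425 in WT against 11611 and 6696 in Ad-Yap/Taz-KO (-0.90 ± 0.25, adjusted p = 0.0164), and its call was lost without replicate 2 (-0.50) and when the 2 WT HFD libraries counted as 1 (adjusted p = 0.103). The calls of Pnpla2 and Pde3b were also lost without either WT HFD library. Those of Lipe, Mgll, G0s2, Plin1, Plin2, Plin4 and Cidec held in all 12 alternative settings and without each of the 8 libraries in turn. The deposited scaling matters for the balance of all genes. Scaled to the same total per library, the median of all genes moved from 0.09 to 0.47 and the calls from 3213 higher and 2840 lower to 4617 higher and 1367 lower. Pnpla2 (-0.56, adjusted p = 0.107) and Pde3b (-0.51, adjusted p = 0.0848) then lost their calls and 7 members stayed called, Plin1 at -1.35 and Lipe at -1.19 among them. Both also lost them under quantile normalization (-0.23 and -0.34) and with no filter on low values, Pnpla2 when the model held no NC library, and Pde3b with the GC and length trend taken out.

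On NC the same comparison called a single member. Plin2 read 2534 and 3013 in WT against 6348 and 5401 in Ad-Yap/Taz-KO (1.08 ± 0.16, adjusted p = 0.00149), a 2.12-fold rise. This was 1 of 10 genes, where 4.71% of all genes were called, 3.21% higher and 1.5% lower. The value held in all 12 alternatives (1.04 to 1.09) and without each library (0.96 to 1.21). The other 9 genes lay between -0.28 (Plin4) and 0.22 (Pde3b). Of these 9, Mgll alone had libraries that did not overlap, with 12016 and 12421 in WT against 9356 and 11072 in Ad-Yap/Taz-KO (-0.26 ± 0.21, adjusted p = 0.595). Non-overlap was found for 2 of the 10 genes and for 45% of all genes.

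In 8 of the 10 genes, all but Plin2 and Mgll, the NC libraries of both genotypes overlapped. Pnpla2 read 24830 and 17229 in WT against 19065 and 27857 in Ad-Yap/Taz-KO. Plin1 read 33826 and 38431 in WT against 29832 and 37876 in Ad-Yap/Taz-KO, and Lipe 11542 and 13399 against 10608 and 14951. The remaining Ad-Yap/Taz-KO NC values were 36232 and 58301 for Plin4, 22926 and 29310 for Cidec and 12525 and 20088 for Pde3b. They were 976 and 1570 for G0s2 and 1957 and 2804 for Abhd5, and in all 5 genes replicate 1 was the lower. The intervals do not show that the genotypes were alike on NC. The 95% confidence interval of the log2 fold change was -0.67 to 0.47 for Plin1, -0.57 to 0.61 for Lipe and -0.89 to 0.70 for Cidec.

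In WT mice HFD raised Lipe, Mgll and Plin2 in the deposited scaling, and Plin2 alone of these 3 when libraries were scaled to the same total. Relative to NC, 9 of the 10 genes had higher values in both HFD libraries and Abhd5 lower ones, and such non-overlap held for 65% of all genes. Plin2 rose from 2534 and 3013 to 6149 and 5923 (1.13 ± 0.16, adjusted p = 0.00106). Lipe rose from 11542 and 13399 to 23066 and 23668 (0.91 ± 0.27, adjusted p = 0.0348) and Mgll from 12016 and 12421 to 22219 and 22262 (0.86 ± 0.21, adjusted p = 0.0161). The 3 calls compare with 18% of all genes called, 8.74% higher and 9.22% lower, and the median was 0.80 over the 10 genes and -0.08 over all.

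Among the 7 genes that did not pass, Cidec (24593 and 31014 on NC) had a log2 fold change of 0.98 ± 0.37 (adjusted p = 0.077) and Plin4 (46426 and 67286 on NC) of 0.90 ± 0.33 (adjusted p = 0.0729). Pnpla2 had 0.74 (adjusted p = 0.0843) and Plin1 0.66 (adjusted p = 0.0911). G0s2, with 1352 and 1532 on NC, had 0.38, and Pde3b, with 13659 and 13505 on NC, had 0.27. Abhd5, with 2871 and 2486 on NC, had -0.31. When totals were made equal, Lipe (0.50, adjusted p = 0.139) and Mgll (0.45, adjusted p = 0.0885) lost their calls and Abhd5 was called lower (-0.72, adjusted p = 0.0109). The sign of G0s2 (-0.04) and of Pde3b (-0.14) turned under that scaling, which moved the median of all genes to -0.48 and the calls from 1643 higher and 1734 lower to 470 higher and 3567 lower. Lipe and Mgll lost their calls with the 2 WT HFD libraries counted as 1 or with any 1 of the 4 WT libraries left out. Far fewer of all genes were called in these settings too. In a fit of the WT libraries alone 7 of the 10 were called, as were 3870 of all 18800 genes. Leaving out either Ad-Yap/Taz-KO HFD library added calls among the members. With 1 library left out the log2 fold change was 0.80 to 1.02 for Lipe, 0.84 to 0.89 for Mgll and 1.00 to 1.25 for Plin2.

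In Ad-Yap/Taz-KO mice HFD raised Plin2 and called no other member. Plin2 went from 6348 and 5401 on NC to 12004 and 9817 on HFD (0.89 ± 0.16, adjusted p = 0.0251), where 1.07% of all genes were called, 0.383% higher and 0.691% lower. The call was lost in 4 of the 12 alternatives and with either WT NC library, either WT HFD library or replicate 2 of Ad-Yap/Taz-KO NC left out, with a log2 fold change of 0.75 to 1.05 throughout. The other 9 genes all had values below 0, from -0.27 (Mgll) to -0.9996 (Cidec), and a median over the 10 genes of -0.76 against 0.03 over all genes. Plin1 had -0.97 (adjusted p = 0.0974), G0s2 -0.96 and Plin4 -0.89. In 6 genes the libraries did not overlap, G0s2, Plin1, Plin4, Cidec and Pde3b with lower values on HFD and Plin2 with higher ones, as in 42% of all genes. With 1 library left out, the calls moved widely among the members and among all genes. The log2 fold change then ran from -1.435 to -0.51 for Plin1 and from -1.79 to -0.21 for Cidec. Without replicate 2 of Ad-Yap/Taz-KO HFD, Pnpla2 and Mgll were at 0.11.

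Whether the effect of the genotype differed between diets was tested as an interaction, the log2 fold change on HFD minus that on NC. It was called lower for 7 of the 10 genes: Cidec (-1.98 ± 0.52, adjusted p = 0.0231), Plin4 (-1.79 ± 0.47, 0.0228), Plin1 (-1.63 ± 0.37, 0.0135), Lipe (-1.59 ± 0.38, 0.0172), G0s2 (-1.34 ± 0.43, 0.0485), Mgll (-1.13 ± 0.30, 0.0253) and Pde3b (-1.12 ± 0.36, 0.0493). Of all genes 17.4% were called, 8.69% higher and 8.73% lower. Pnpla2 had -1.10 (adjusted p = 0.0774), Abhd5 -0.17 and Plin2 -0.24 ± 0.23 (adjusted p = 0.499; 95% confidence interval -0.73 to 0.26), and the signs of Abhd5 (0.25) and Plin2 (0.19) turned under scaling to the same total. That scaling moved the median of all genes from 0.10 to 0.52, the calls from 1633 higher and 1641 lower to 2610 higher and 619 lower, and the members called to 4, with Mgll (-0.71, adjusted p = 0.0737), G0s2 (-0.91, adjusted p = 0.108) and Pde3b (-0.69, adjusted p = 0.131) lost. G0s2 and Pde3b were close to the limit and kept their calls in 4 and 3 of 11 alternatives, losing them also with a pseudocount of 0.5 and with upper-quartile scaling. The 7 calls were lost with the WT HFD libraries counted as 1 sample, without either of them, or without replicate 1 of WT NC. Some were lost without replicate 2 of WT NC, of Ad-Yap/Taz-KO NC or of Ad-Yap/Taz-KO HFD. Far fewer of all genes were called in each of these settings too. With 1 library left out the interaction was -2.77 to -1.19 for Cidec and -1.52 to -0.72 for Pde3b. The comparison on HFD, the diet effect in WT and the interaction share the WT HFD libraries and are not independent of each other.

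**Figure D2:**
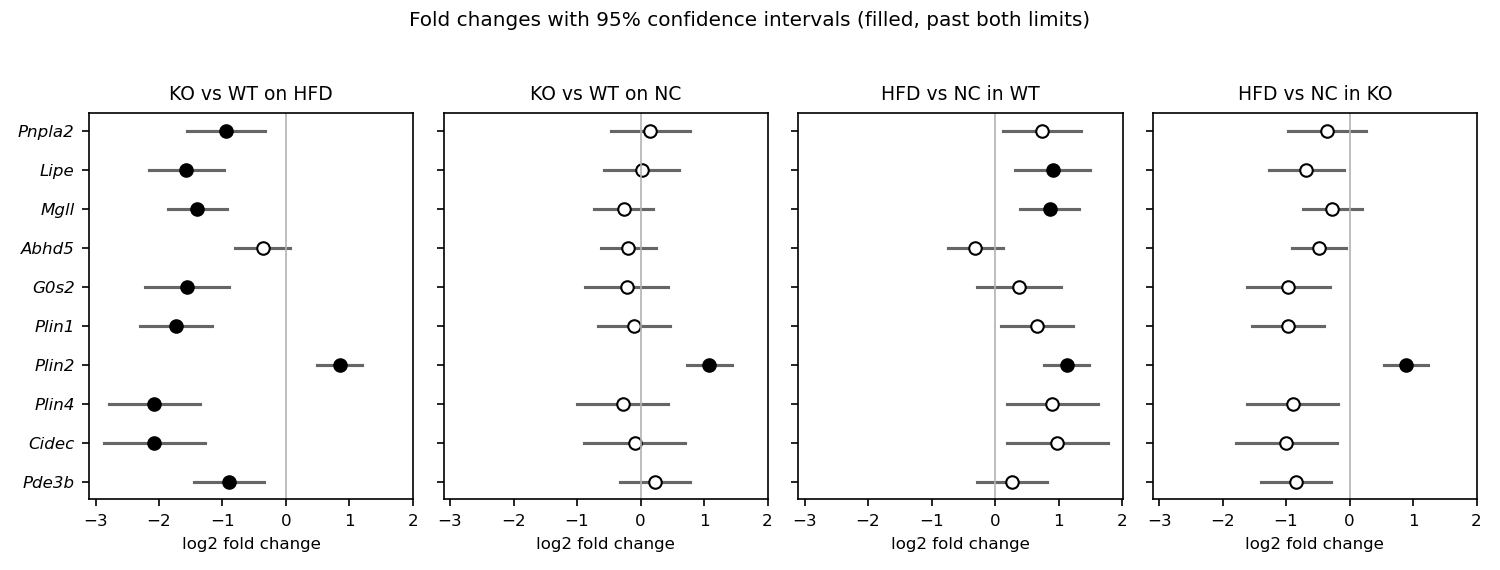
Log2 fold changes of the 10 genes in 4 comparisons, with 95% confidence intervals as bars. Filled points passed both limits (adjusted p at most 0.05, size at least 0.59): 9 of 10 for KO against WT on HFD, Plin2 alone on NC, 3 for HFD against NC in WT, and Plin2 alone in KO. Plin2 is the only member to the right of 0 in all 4 panels by a margin past both limits.

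The perilipins together shifted in composition. In each library the levels per kilobase of Plin1 to Plin5 were summed and the share of each was taken, a description in which a rise of one share lowers the others. Plin2 made up 4.44% and 4.09% in WT NC, 12.3% and 7.67% in Ad-Yap/Taz-KO NC, 5.42% and 5.21% in WT HFD, and 22.8% and 32.3% in Ad-Yap/Taz-KO HFD. The Plin4 share was 55.7% and 55.9% in WT HFD and 41.3% and 34.2% in Ad-Yap/Taz-KO HFD, and the Plin1 share 37.8% and 38.0% against 33.9% and 30.9%. Plin3 and Plin5 stayed at or below 1.31% each in all libraries. The shares use the summed exon length, 4649 bases for Plin1, 3512 for Plin2 and 5777 for Plin4. The longest transcripts are 2817, 1888 and 5756 bases. Shares by these were not taken and would put more weight on Plin1 and Plin2, so the order of the shares is tied to the length used. The ratio of Plin2 to Plin1 normalized counts, 0.0749 and 0.0784 in WT NC and 0.108 and 0.104 in WT HFD, was 0.213 and 0.143 in Ad-Yap/Taz-KO NC and 0.508 and 0.790 in Ad-Yap/Taz-KO HFD, a 10.5-fold span over the 8 libraries. The ratio of Plin4 to Plin1 spanned 1.51-fold and that of Cidec to Plin1 1.60-fold.

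**Figure D3:**
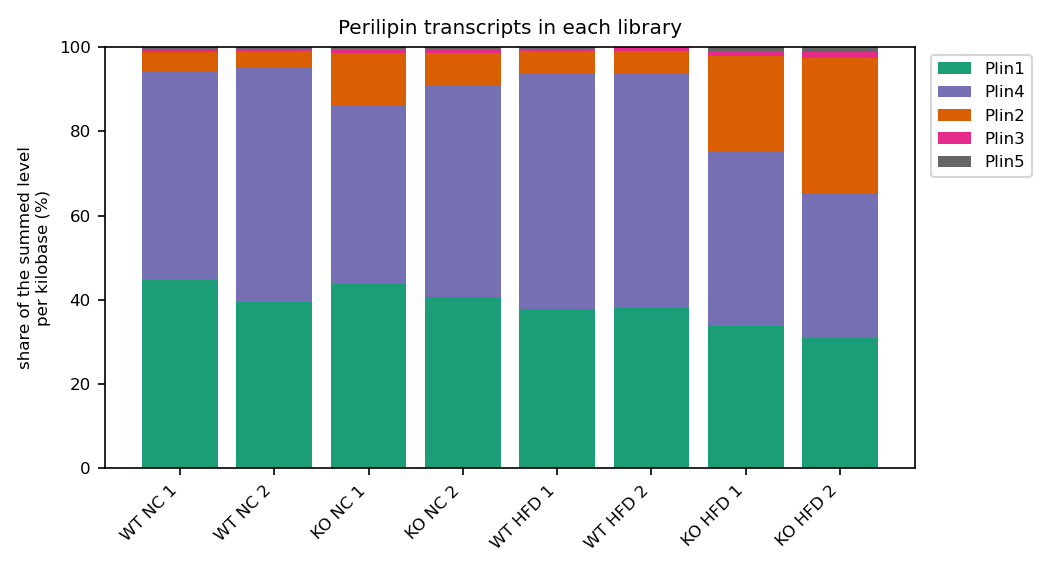
Share of each perilipin gene in the summed level per kilobase of Plin1 to Plin5 (percent, stacked from 0), 1 bar per library. Levels are per kilobase of all exons, and shares by longest transcript were not taken. The Plin2 section grows from 4.09% and 4.44% in WT NC to 22.8% and 32.3% in KO HFD, and Plin1 and Plin4 make up the rest but for thin sections of Plin3 and Plin5.

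Markers of cell types differed between the groups as well. For the genotypes on HFD adipocyte markers moved with most members, and most macrophage and fibroblast markers moved the other way. The shares of all genes called in each comparison are those given above. The 9 adipocyte markers had a geometric mean of 16060 and 17371 normalized counts in WT NC, 12532 and 17591 in Ad-Yap/Taz-KO NC, 23951 and 23480 in WT HFD, and 10741 and 5734 in Ad-Yap/Taz-KO HFD, and 8 of the 9 were called lower in Ad-Yap/Taz-KO on HFD (Fabp4, at -0.32, was not). In bulk RNA fewer adipocytes and less RNA of these genes per adipocyte cannot be told apart. The 11 macrophage markers summed to 6185 and 5954 in WT NC, 39963 and 25479 in Ad-Yap/Taz-KO NC, 3452 and 3696 in WT HFD, and 55999 and 43825 in Ad-Yap/Taz-KO HFD, none at 0. Of these 9 were called higher in Ad-Yap/Taz-KO on each diet, and 8 were called lower on HFD in WT, where Plin2 rose. In that comparison 3 of 6 endothelial and 3 of 6 fibroblast markers were called lower too. For HFD in Ad-Yap/Taz-KO, where Plin2 rose as well, 1 of 11 macrophage and 2 of 6 fibroblast markers were called higher. The median log2 fold change of the macrophage markers there was 0.71. Fibroblast markers (6 genes) summed to 8127 and 8387 in WT HFD compared with 32095 and 36269 in Ad-Yap/Taz-KO HFD, with 4 called higher. Endothelial markers (6 genes) summed to 11750 to 27914 over the libraries, with 1 called higher on HFD. Summed levels of 5 mesothelial markers (167 to 673) and 5 brown adipocyte markers (219 to 546) were low in every library. Of the brown adipocyte markers Cidea and Dio2 were called higher in Ad-Yap/Taz-KO on NC, where the 5 summed to 395 and 546 against 259 and 219 in WT NC. In the interaction 7 of the 9 adipocyte markers were called lower, and 9 of 11 macrophage, 5 of 6 endothelial and 5 of 6 fibroblast markers higher. The part of any of these cell types in the members' changes was not tested.

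Set against the adipocyte markers of the same library, the members no longer fell together. Which of them fell depended on whether Lep was among the markers. For each library the log2 mean of the 9 markers was subtracted from the log2 value of each gene. On HFD the difference between Ad-Yap/Taz-KO and WT was then -0.48 for Plin4, -0.48 for Cidec and -0.14 for Plin1. It was 0.03 for Lipe, 0.04 for G0s2 and 0.20 for Mgll, and 0.65 for Pnpla2, 0.70 for Pde3b, 1.23 for Abhd5 and 2.44 for Plin2. Lep, the marker that fell most (-4.45), weighs on these values. Without it, an alternative chosen after seeing the data, Lipe, G0s2 and Mgll turned to -0.33, -0.32 and -0.16, Plin1 was at -0.50, Plin4 at -0.84 and Cidec at -0.83, while Pnpla2 (0.30), Pde3b (0.34), Abhd5 (0.88) and Plin2 (2.09) kept their sign.

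**Figure D4:**
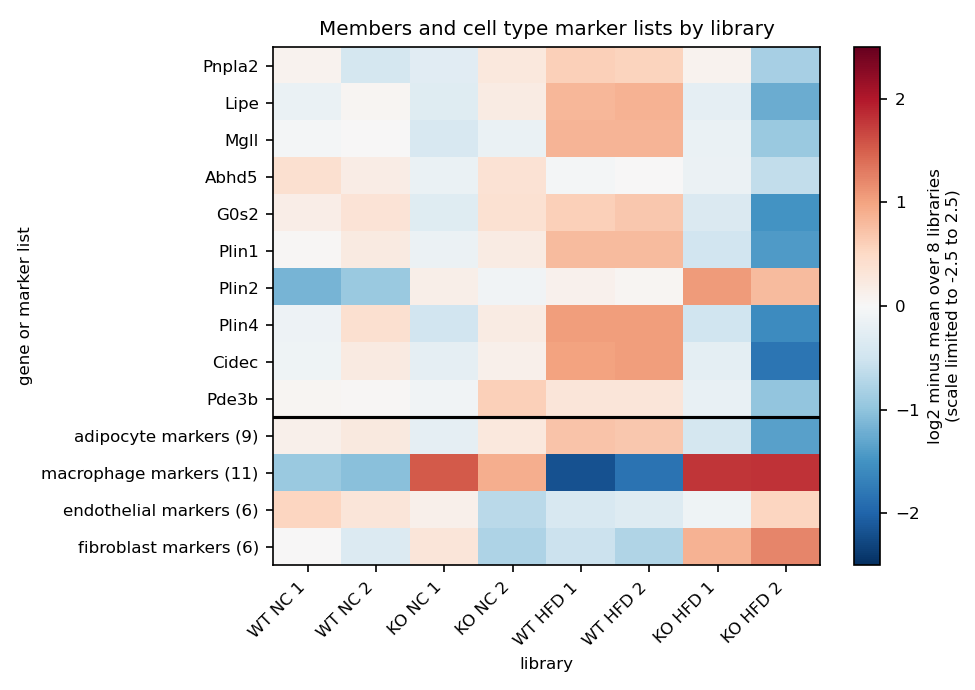
Log2 value of each member, and mean log2 value of 4 marker lists, minus its mean over the 8 libraries, 1 column per library. Blue is below and red above the mean, on a scale limited to 2.5 either way. The adipocyte row and 9 members are palest or blue in KO HFD and red in WT HFD, save Abhd5, which is near its mean in WT HFD, while the macrophage row and Plin2 are red in KO HFD.

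Other genes of the pathway were read from lists drawn up by role. Beside the counts below stand the shares of all genes called. These were 17.1% higher and 15.1% lower for the genotypes on HFD, and 3.21% and 1.5% on NC. They were 8.74% and 9.22% for HFD in WT, and 0.383% and 0.691% for HFD in Ad-Yap/Taz-KO. Of 22 further lipases and droplet proteins, 4 were higher and 6 lower in Ad-Yap/Taz-KO on HFD, with a median of -0.25. Lipa, the lysosomal acid lipase, was higher on HFD (2.52) and on NC (2.46), and so was the fatty acid binding protein Fabp5 (0.66 and 0.92). Hilpda, a further inhibitor of Pnpla2, was higher on HFD (0.79). Pnpla3, the lipase most like Pnpla2, fell on HFD (-2.14), with Ldah (-1.26), Fitm2, which acts in droplet formation (-1.10), and Ces1d (-1.01). On NC 3 of the 22 were called, all higher, and the third was Cidea (3.50), a relative of Cidec that is also one of the brown adipocyte markers. HFD in WT raised Fabp5 (0.92), Plin3 (0.78) and Faf2 (0.76), and HFD in Ad-Yap/Taz-KO lowered Pnpla3 alone (-1.47).

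The signalling list held 24 genes that control lipolysis (receptors, G proteins, adenylyl cyclases, kinase subunits and phosphodiesterases). Of these 12 were lower and 4 higher in Ad-Yap/Taz-KO on HFD, with a median of -0.84, where 15.1% of all genes were lower and 17.1% higher. The largest falls were those of Npr3, the clearance receptor for natriuretic peptides (-5.41), and of the receptors Adora1 for adenosine (-3.20) and Ptger3 for prostaglandin E (-2.68), both of which lower cAMP, with the phosphodiesterase Pde4d (-1.50). Adrb3, the β3-adrenergic receptor that raises cAMP, was lower as well (-1.44) and is named for its role, after its value was seen. Npr1, the signalling natriuretic peptide receptor, was higher (1.78), as were Pde4b (1.28), Prkg1 (1.10) and Adcy3 (1.05). On NC only Npr3 (-3.84) and Adora1 (-1.77) were called. In WT HFD raised 6 of the 24, among them Ptger3 (3.34), Npr3 (2.03), Adora1 (1.94) and Pde4d (1.70), and lowered Hcar2 (-1.68), Npr1 (-1.50) and Prkg1 (-1.13). In Ad-Yap/Taz-KO HFD raised Adcy3 (1.25) and lowered Acvr1c (-1.41).

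Of 13 transcription factors known to act on these genes, 7 were lower and 1 higher in Ad-Yap/Taz-KO on HFD. The shares over all genes were 15.1% lower and 17.1% higher. Klf15 (-1.80), Rxra (-1.62), Mlxipl (-1.50) and Pparg (-1.29), the nuclear receptor that drives adipocyte genes, fell, and Snai1 rose (1.83). On NC Irf4 (-1.003) and Egr1 (-0.97) were lower, and HFD in WT lowered Irf4 (-2.01), Snai1 (-1.92) and Egr1 (-0.66). For HFD in Ad-Yap/Taz-KO limma called 0 of the 13, with 7 at an unadjusted p under 0.05, as were 2905 of all 18800 genes. In the interaction 3 of the 13 were called lower and 2 higher, with 10 lower and 4 higher of the 24 signalling genes. Of the 22 lipases and droplet proteins 5 were lower and 0 higher. That test called 8.73% of all genes lower and 8.69% higher. Pparg, Cebpa and Fabp4 belong both to these lists and to the adipocyte markers.

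**Figure D5:**
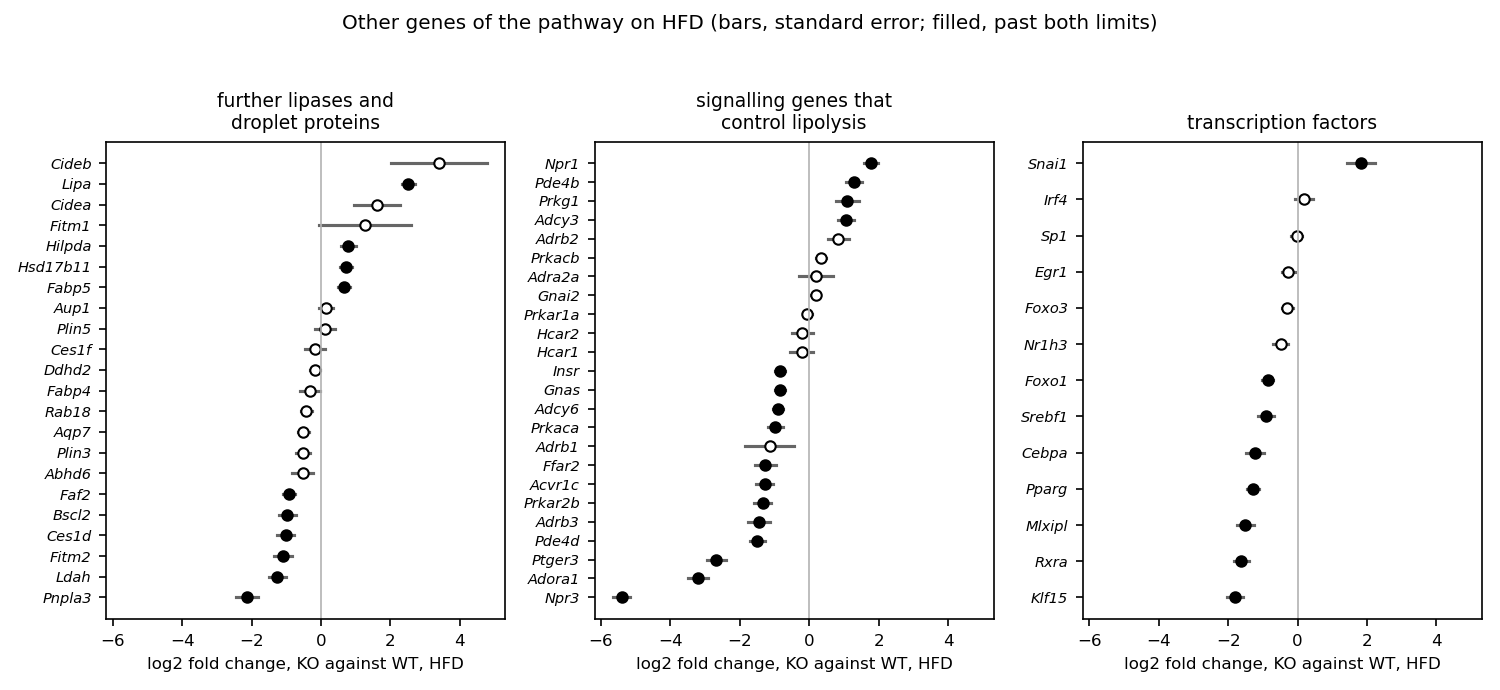
Log2 fold change of KO against WT on HFD for 22 further lipases and droplet proteins, 24 signalling genes that control lipolysis, and 13 transcription factors. Bars are standard errors and filled points passed both limits. The lowest point is Npr3 at -5.41 and the highest filled point Lipa at 2.52.

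Members were also compared by the shape of their profiles. For the 5113 genes whose mean was 500 or more, the distance was the root mean square difference of log2 values over the 8 libraries after each gene's own mean was taken off. Plin4 and Cidec (0.174), Plin1 and G0s2 (0.143), and Abhd5 and Pde3b (0.266) were each other's nearest members. Lipe was nearest to Plin1 (0.16) and Mgll to Lipe (0.179). The genes nearest to Plin1 were Abcd2 (0.0749) and Gpt2 (0.0922), those nearest to Lipe were Extl3 and Cav1, and those nearest to Cidec were Bche and Tcaf1. Plin4 had Gstz1 and Bche nearest to it, G0s2 had Itga7 and Retn, Mgll had Ankrd40 and Chp1, Pnpla2 had Bscl2 and Fech, Abhd5 had Fgfr1 and Coq8a, and Pde3b had Mccc2 and Pank3. Plin2 lay farthest from the other members. Its nearest genes were Gusb (0.0988), a lysosomal enzyme, and Fabp5 (0.16). The nearest member to Plin2, Pnpla2, was at 0.88 and held rank 3631 of 5113. Many other genes also lay nearer than any member to Pnpla2 (nearest member at rank 574), Abhd5 (434), Pde3b (338) and Mgll (113). The rank was 36 for Lipe, 16 for Plin1, 10 for Plin4, and 4 for G0s2 and Cidec. The 8 points share libraries and depth, and the distances are given as a description.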

How the data were processed

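RNA of isolated white adipocytes was ribosome-depleted and sequenced with a stranded total RNA kit. By the study's methods the authors trimmed reads with Reaper, aligned them to GRCm38 (mm10) with STAR 2.5.2b, counted reads on exons with featureCounts 1.5.1, leaving out reads over several genes or places, and tested with DESeq2 1.14.1. The values the authors deposited are best called a score: gene counts scaled by library size factors and then rounded, in 1 table of 30387 genes, so count models were not run and depth was estimated from the spacing of the values. How the size factors were set is not given in the sources used here.

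Here, log2(value + 1) was fitted with limma 3.58.1 (R 4.3.3; trend, 4 group means, 4 residual and 8.59 prior degrees of freedom) for genes with a mean of at least 5, which left 18800. P-values were Benjamini-Hochberg adjusted over all of them, and fold changes are on that scale. A permutation test of 2 against 2 libraries cannot reach 0.05 and was not used. The 2 libraries of a group are from different mice by the study's description. Intervals rest on 1 spread per gene, pooled over the 4 groups and drawn towards the trend over all genes. They do not measure the spread within the 2 groups compared, and the Ad-Yap/Taz-KO libraries also enter the intervals of the diet comparison in WT. Tables and figures were made with Python 3.11.15 and pandas 2.3.3. The limma fit and the estimate of the value spacing were each tested on simulated data.

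The rule for named lists was at most the 4 called genes with the largest absolute change in each comparison; genes named beyond these were added after their values were seen, up to 4 in each direction and Adrb3. The members, lists and several alternatives were chosen with earlier results of these data known. Alternatives covered the pseudocount, the filter, 3 other scalings, the samples in the fit, robust moderation, a replicate block, the WT HFD libraries as 1 sample, a GC and length trend, exon length, and each library left out.

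Same-numbered replicates did not deviate together (correlations from -0.107 to 0.0397), so replicates were not paired. Gene positions are from GENCODE vM21, which held 30259 of the identifiers, and promoter windows from RefSeq on GRCm38.p6, which held 9 of the 10 members.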

Additional observations from a re-analysis of the deposited data

Results flagged for a closer look

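The effect of the genotype differed between the diets for 7 genes by the interaction test in limma, each with a lower log2 fold change on HFD than on NC: Cidec (-1.98), Plin4 (-1.79), Plin1 (-1.63), Lipe (-1.59), G0s2 (-1.34), Mgll (-1.13) and Pde3b (-1.12). Of all genes 17.4% were called in this test, 8.73% lower. All 7 calls were lost when the 2 WT HFD libraries were counted as 1 sample, a setting in which far fewer of all genes were called too. The adipocyte marker genes moved the same way, with 7 of 9 called lower in the interaction, while 9 of 11 macrophage, 5 of 6 endothelial and 5 of 6 fibroblast markers were called higher. Their part was not tested.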

How the results depend on the processing

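With 2 libraries per group the number of libraries limits precision. For the genotypes on HFD, 7 to 10 members were called over all alternatives and left-out libraries (9 in the report), and on NC 1 was called throughout. For HFD against NC in WT (3 called), 1 was called with no filter, with quantile normalization and with WT HFD averaged to 1 sample, 5 with the GC and length trend taken out, 7 in a fit of the 2 groups alone, and 1 to 7 with 1 library left out. For HFD against NC in Ad-Yap/Taz-KO (1 called), 0 were called with no filter, in a fit of the 2 groups alone, with the replicate block and with WT HFD averaged to 1 sample, and 0 to 8 with 1 library left out. For the interaction (7 called), 0 were called with no filter or with WT HFD averaged to 1 sample, 4 with libraries scaled to the same total, 5 with a pseudocount of 0.5, upper-quartile scaling or the replicate block, 1 with quantile normalization, and 0 to 8 with 1 library left out. The replicate block also took the call from Lipe for HFD in WT and from G0s2 and Pde3b in the interaction, and changed no other call of a member. The number of all genes called also moved under these settings. The causes were not tested. A group left with 1 library is taken to vary like the others.

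Signs turned for values that had not passed the test. Scaled to the same total, the log2 values were 0.022 for Abhd5 on HFD and -0.0252 for Lipe on NC (Ad-Yap/Taz-KO against WT), -0.0362 for G0s2 and -0.14 for Pde3b (HFD in WT), and 0.25 for Abhd5 and 0.19 for Plin2 (interaction). Upper-quartile scaling gave -0.0243 for Lipe on NC, quantile normalization -0.10 for Pde3b (HFD in WT), 0.11 for Abhd5 and 0.25 for Plin2 (interaction), and the GC and length trend 0.0085 for Cidec on NC and 0.10 for Abhd5 (interaction). With 1 library left out, the NC comparison of the genotypes ranged from -0.12 to 0.43 for Pnpla2, -0.23 to 0.27 for Lipe, -0.45 to 0.0698 for Abhd5, -0.56 to 0.13 for G0s2, -0.27 to 0.0711 for Plin1, -0.63 to 0.0609 for Plin4, -0.27 to 0.0858 for Cidec and -0.12 to 0.56 for Pde3b. HFD in Ad-Yap/Taz-KO ranged from -0.82 to 0.11 for Pnpla2 and -0.65 to 0.11 for Mgll, and the interaction of Abhd5 from -0.43 to 0.0854. Over all member values under another setting, 516 kept direction and side of the limits, 54 lost a call, 8 gained one and 12 turned sign, and with 1 library left out 312 kept both, 54 lost a call, 19 gained one and 15 turned sign. By longest transcript in place of all exons, 6 of the 10 genes changed rank per kilobase, and Cidec stayed first and Abhd5 last.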
